A study of Schizosaccharomyces pombe with 6 samples.

Results

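Glycolysis is the pathway that splits glucose into pyruvate in the cytosol, and the 10 genes considered here, hxk1, hxk2, pgi1, pfk1, fba1, tpi1, tdh1, pgk1, gpm1 and pyk1, encode enzymes of its steps in fission yeast. They were taken from a list by gene name, and a gene was kept when the array has a probe set, a group of short probes against a transcript, that is annotated to it and to no other S. pombe gene. This held for 9 of the 10 genes, out of 4966 probe sets tested in all. The exception was tdh1 (SPBC32F12.11), which encodes glyceraldehyde-3-phosphate dehydrogenase and shares its probe set with gpd3 (SPBC354.12), a gene for the same enzyme, so that the transcripts of these genes cannot be told apart here.

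The early steps of the pathway spend ATP to make a sugar with phosphates at both ends, and the later steps cleave it and return ATP and NADH. Fission yeast in rich glucose ferments much of the pyruvate to ethanol, and its glycolytic transcripts are known to be abundant.

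Gene expression was compared between 3 untreated cultures of wild-type S. pombe 972 h- and 3 cultures that received 50 µM NaHS, a salt that releases H2S in water, for 30 min at 30°C. All 6 were grown in liquid medium to an OD600 of 0.5, and each was hybridised to its own Affymetrix Yeast Genome 2.0 array. The labels number 3 experiments, each with 1 untreated and 1 treated culture described as biological, and they do not say how the untreated cultures were handled during the 30 min. The values are log2 signals from the MAS5 algorithm (1 unit is a doubling). Having 3 arrays per group limits the precision of the comparison, and so do differences between the numbered experiments, which the main fit leaves in.

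The 9 genes gave strong signals on all arrays. Their mean log2 signals lay between 11.60 for hxk1 and 12.94 for pgk1, while the highest value on any array was 13.31, and none of their cells was blank. Ordered by mean signal, pgk1 stood at place 11 of the 4966, pgi1 at 16 and gpm1 at 29, while pyk1, tpi1, hxk2 and fba1 followed from place 87 on, pfk1 stood at place 287 and hxk1 at place 565. This order describes where the probe sets lie in the measuring range and is not an order of transcript levels, since different probes do not bind alike. Background is given by the 2601 probe sets for S. cerevisiae genes on the same arrays, whose medians were between 0.01 and 0.40. Blank cells of these probe sets counted as 0. The arrays of replicate 1 differed from the others in both groups, correlating with them at 0.970 and 0.969 in the untreated group and at 0.970 and 0.969 in the NaHS group, against 0.996 and 0.994 between replicates 2 and 3. For the mating type, the M-factor precursor gene mfm2, which cells of the h- type express, had log2 signals from 9.97 to 11.25, and the P-factor precursor gene map2, expected in cells of the opposite type, from 5.08 to 6.24. The other M-factor precursor genes gave 6.44 to 7.22 for mfm3 and 2.35 to 4.22 for mfm1, the last around 3.67, the 99th percentile of the mean signals of the S. cerevisiae probe sets, so that the marker genes did not all point one way.

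Treatment with NaHS was followed by little difference in any of the 9 genes. All 9 mean differences were above 0, but they were small, from 1.01-fold for pyk1 to 1.12-fold for hxk2, and no gene passed the test. The test was limma with the Benjamini-Hochberg adjustment over all 4966 probe sets, and a call needed an adjusted p below 0.05. It called 0 of the 9 glycolytic genes higher and 0 lower, where 7.63% of all probe sets tested were called, 3.97% higher and 3.66% lower. Calls were rarer among strong signals. Among the 279 other probe sets at or above the mean signal of pfk1, 3 were called (1.08%). Among the 556 at or above that of hxk1, 23 were called (4.14%). In this fit, 0 of 9 therefore does not set the glycolytic genes apart from other strong signals. No glycolytic gene passed 0.05 without the adjustment either. A version of SAM programmed for this work, as an unpaired test, called 0 of the 9 genes. This version called 149 of all 4966 probe sets, fewer than the 379 called by limma, so its 0 adds little. The study also used SAM and reports a longer list from its own run. Whether that list holds any glycolytic gene was not checked. The median log2 fold change of the 9 was 0.04, beside 0.01 for all probe sets. The 95% intervals of limma, which are not adjusted for the number of genes, ran from 0.77-fold to 1.46-fold over the 9 genes, and from 0.861-fold to 1.28-fold when hxk1 is left aside. A 1.5-fold change of signal in either direction, the smaller threshold of the study, was therefore outside the interval of each gene. Smaller changes within the bounds of a gene's own interval were not excluded. Most of these signals lie near the top of the measured range, and whether they follow transcript levels in proportion there was not tested. MAS5 signals are relative to the other signals of an array, so that a change in the total RNA of the cells would not be seen.

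**Figure D1:**
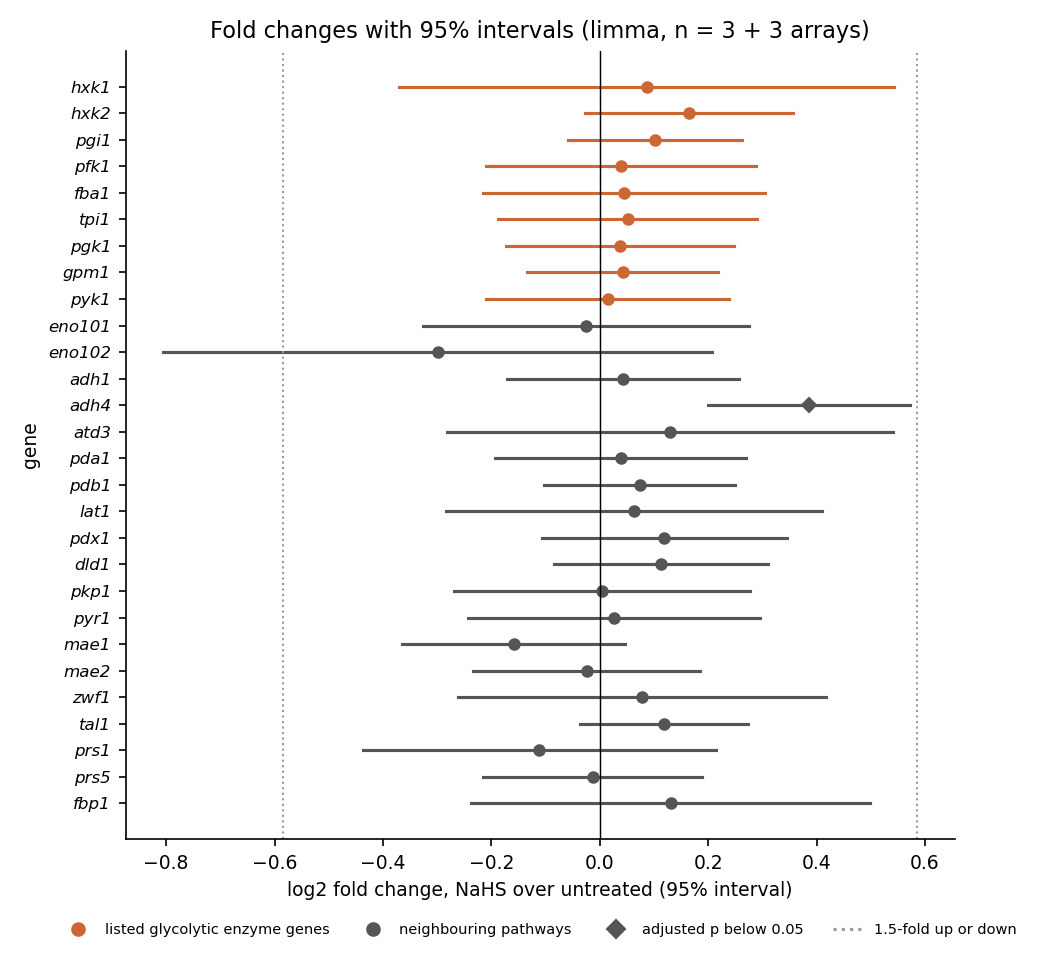
Log2 fold change of NaHS over untreated cultures (x axis) for the 9 glycolytic genes and for measured genes of neighbouring pathways (y axis), with points for the limma estimate and lines for its 95% interval, from 3 arrays per group. All 9 glycolytic intervals include 0 and lie inside the dotted lines at 1.5-fold, and adh4 is the only gene shown as a diamond, which marks an adjusted p below 0.05.

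The first step is the phosphorylation of glucose, carried out by the hexokinases Hxk1 and Hxk2. The log2 signal of hxk1 (SPAC24H6.04) was 11.85, 11.28 and 11.53 in untreated replicates 1, 2 and 3 and 11.92, 11.46 and 11.54 after NaHS. Both replicate 1 arrays were the highest of their group, and the groups overlapped. The log2 fold change was 0.09 (SE 0.19, limma adjusted p = 0.891), and the spread of hxk1 over the 6 arrays, 0.64, was the widest of the 9 genes. Within replicates 1, 2 and 3 the difference was 0.07, 0.18 and 0.0093, and with the replicate number as a block the SE was 0.053 (limma adjusted p = 0.275), so that much of the width of its interval in the fit without a block comes from differences between the replicate numbers.

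For hxk2 (SPAC4F8.07C) the untreated arrays were almost alike, at 12.60, 12.59 and 12.59, and the NaHS arrays gave 12.72, 12.68 and 12.88. The lowest NaHS value lay above the highest untreated one, and the log2 fold change was 0.16 (SE 0.08, limma adjusted p = 0.3). The same separation was seen for pgi1 (SPBC1604.05), which encodes glucose-6-phosphate isomerase, the enzyme of the second step. Its log2 signals were 12.87, 12.84 and 12.83 in untreated cells and 12.94, 12.90 and 13 after NaHS, and the log2 fold change was 0.10 (SE 0.07, limma adjusted p = 0.458). These were the 2 of the 9 genes whose groups did not overlap upwards, where 14.6% of all probe sets did the same, and none of the 9 was separated downwards, where 13.7% of all were. With 9 genes, 2 is near the background share. In the fit that takes the replicate number as a block, which called 32.7% of all probe sets, neither passed (adjusted p = 0.096 for hxk2 and 0.17 for pgi1 by limma), and it called 0 of the 9 genes.

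Since Hxk1 and Hxk2 perform the same reaction, the difference between their log2 signals was compared between the groups. It was 1.04 ± 0.28 (SD, n = 3) in untreated and 1.12 ± 0.28 (SD, n = 3) in NaHS-treated cultures, a change of 0.08 (p = 0.7, exact two-sided permutation test over the 6 arrays, in which the smallest possible p is 0.1). Within replicates 1, 2 and 3 the change was 0.05, -0.10 and 0.28. With 3 arrays per group this test could not have passed 0.05 whatever the values, and it does not show that the difference stayed the same.

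The gene pfk1 (SPBC16H5.02) encodes 6-phosphofructokinase, which commits the sugar to glycolysis. It gave 12.35, 12.14 and 12.13 in untreated replicates 1, 2 and 3 and 12.30, 12.11 and 12.33 after NaHS, with a log2 fold change of 0.04 (SE 0.10, limma adjusted p = 0.914). The highest of its 6 values was that of an untreated array, and the groups overlapped.

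The sugar bisphosphate is cleaved by the aldolase of fba1 (SPBC19C2.07), and the resulting triose phosphates are interconverted by the triosephosphate isomerase of tpi1 (SPCC24B10.21). For fba1 the untreated arrays gave 12.68, 12.67 and 12.61 and the NaHS arrays 12.65, 12.55 and 12.90. For tpi1 they gave 12.67, 12.67 and 12.64 against 12.64, 12.60 and 12.90. In both genes NaHS replicates 1 and 2 were at or below the untreated arrays of the same number while NaHS replicate 3 was above all others. The log2 fold change was 0.04 for fba1 (SE 0.11, limma adjusted p = 0.907) and 0.05 for tpi1 (SE 0.10, limma adjusted p = 0.869).

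The shared probe set of tdh1 and gpd3 behaved in the same way. It gave 12.67, 12.63 and 12.57 in untreated and 12.62, 12.53 and 12.88 in NaHS-treated cultures, a log2 fold change of 0.05 (SE 0.11, limma adjusted p = 0.892). It is given for completeness of the pathway and was not counted among the 9.

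In the later steps, pgk1 (SPBC14F5.04C), for the phosphoglycerate kinase that makes the first ATP, gave 12.93, 12.96 and 12.88 in untreated replicates 1, 2 and 3 and 12.91, 12.87 and 13.10 after NaHS. The phosphoglycerate mutase gene gpm1 (SPAC26F1.06) gave 12.84, 12.82 and 12.85 against 12.79, 12.89 and 12.95. For gpm1 the lowest and the highest of the 6 values were both from NaHS arrays. The log2 fold changes were 0.04 for pgk1 (SE 0.09, limma adjusted p = 0.896) and 0.04 for gpm1 (SE 0.07, limma adjusted p = 0.847).

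Pyruvate kinase, the product of pyk1 (SPAC4H3.10C), closes the pathway. The gene gave 12.72, 12.72 and 12.68 in untreated and 12.66, 12.62 and 12.89 in NaHS-treated cultures. Its log2 fold change of 0.01 was the smallest of the 9 (SE 0.09, limma adjusted p = 0.98), and again NaHS replicates 1 and 2 were below and NaHS replicate 3 above all untreated arrays.

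**Figure D2:**
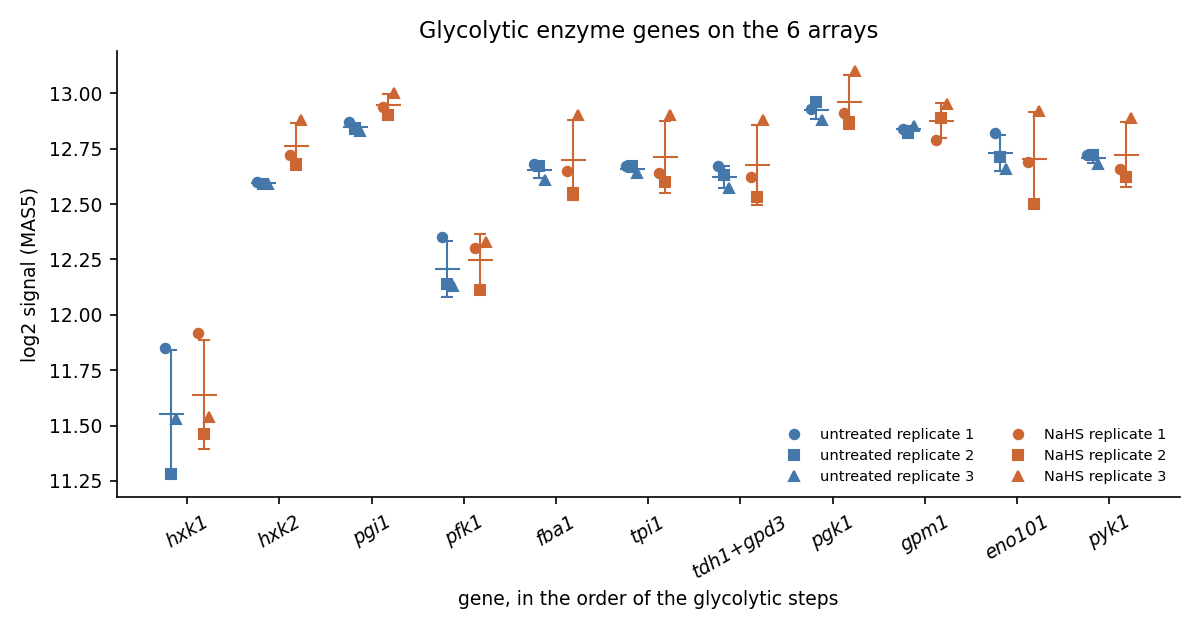
Log2 signal (y axis) of the glycolytic genes in the order of their steps (x axis), with the shared probe set of tdh1 and gpd3 and the enolase gene eno101 added. Each symbol is 1 array, the horizontal bar is the mean and the error bar the SD of 3 arrays. The orange triangle, NaHS replicate 3, is the highest of the 6 symbols in every column but those of hxk1 and pfk1.

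What the genes shared was the way they varied over the arrays. In 7 of the 9, NaHS replicate 3 gave the highest of the 6 signals, the others being hxk1 and pfk1. Leaving hxk1 aside, the SD within the untreated group was between 0.0031 and 0.13 and that within the NaHS group between 0.052 and 0.18, and the SD was higher in the NaHS group for 7 of the 9 genes. Taken within replicate numbers, the difference between NaHS and untreated was above 0 for 3 genes in replicate 1, for 4 in replicate 2 and for all 9 in replicate 3. Its median over the 9 was -0.03 in replicate 1, -0.03 in replicate 2 and 0.21 in replicate 3. The genes hxk1, hxk2 and pgi1, which act in the first 2 steps, were above 0 in all 3 replicates, and pfk1, fba1, tpi1, pgk1 and pyk1 were below 0 in replicates 1 and 2. This grouping was read from the values and was not tested. Some genes of neighbouring pathways were also above 0 in all 3, dld1, lat1 and tal1 among them, while others were not. Being above 0 in all 3 is thus not particular to the first 2 steps.

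**Figure D3:**
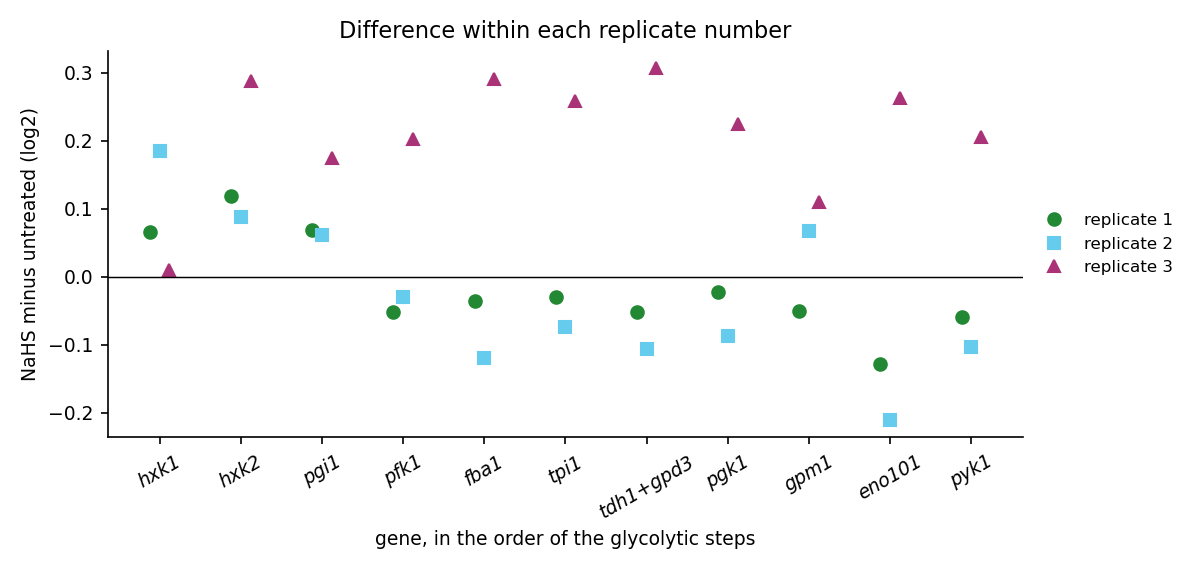
NaHS minus untreated log2 signal within each replicate number (y axis) for the glycolytic genes in the order of their steps (x axis), with the shared probe set of tdh1 and gpd3 and with eno101 added. Each symbol is the difference of 1 NaHS and 1 untreated array. Triangles (replicate 3) lie above 0 in every column, while circles and squares (replicates 1 and 2) are both above 0 only for hxk1, hxk2 and pgi1.

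The rise on NaHS replicate 3 was not limited to glycolytic genes. Among the 279 other probe sets whose mean signal was at least that of pfk1, the NaHS array of replicate 3 was above its untreated partner in 87.5%, with a median difference of 0.14, whereas the NaHS array was the higher in 24.4% in replicate 1 and 14.0% in replicate 2, with median differences of -0.05 and -0.09. Of these 279 probe sets, 77.4% had their highest signal on NaHS replicate 3, as against 13.8% of all probe sets tested. That array also had 32 tested probe sets above a log2 signal of 13, and the other arrays had between 1 and 8. Over all probe sets the median difference was 0.01, 0.02 and -0.01 in replicates 1, 2 and 3. In replicates 1 and 2, hxk2 (0.12 and 0.09) and pgi1 (0.07 and 0.06) were among the minority of strong signals above 0, well inside a range that reached 0.55 and 0.54 among the 279. The part of this array in the fold changes can be read from the fit without it: without NaHS replicate 3, 5 of the 9 log2 fold changes were below 0, those of pfk1 (-0.0033), fba1 (-0.06), tpi1 (-0.04), pgk1 (-0.03) and pyk1 (-0.07). Without it the highest was 0.14 and the lowest adjusted p of the 9 was 0.475 by limma. That all 9 mean differences were above 0 also depended on other arrays. The value of hxk1 was -0.05 without NaHS replicate 1 and -0.05 without untreated replicate 2, with the other 8 above 0 in both fits. With all arrays and quantile normalization all 9 stayed above 0, with a median of 0.042 and a lowest value of 7e-05. With cyclic loess normalization all 9 did too, with a median of 0.038 and a lowest value of 0.0047.

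**Figure D4:**
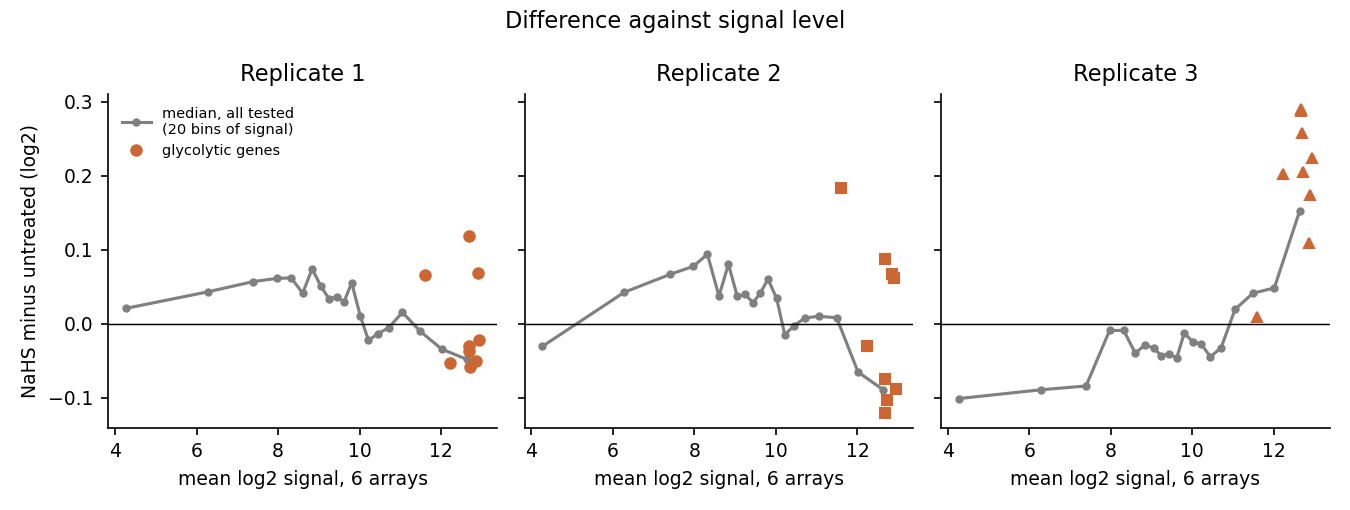
NaHS minus untreated log2 signal (y axis) against the mean log2 signal over the 6 arrays (x axis), in 1 panel per replicate number. The grey line joins the medians of all tested probe sets in 20 bins of signal, and the orange symbols are the 9 glycolytic genes. At the highest signals the grey line falls below 0 in replicates 1 and 2 and rises to 0.15 in replicate 3, and the glycolytic genes of replicate 3 lie above 0 as well.

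As a description of how closely the genes moved together, Pearson's r over the 6 arrays was above 0 for 32 of the 36 pairs, with a median of 0.66. The highest values were those among fba1, tpi1, pgk1 and pyk1, from 0.96 to 0.98 in 6 pairs, and these stayed between 0.79 and 0.98 over the 5 arrays other than NaHS replicate 3. With hxk1 they ran from -0.31 for gpm1 to 0.73 for pfk1. All values come from the same arrays and share their scaling, so the coefficients describe these arrays only. Of 2908 other single-gene probe sets, those most like the mean profile of the 9 glycolytic genes over the 6 arrays were mmf1 (r = 0.99), eca39, a branched-chain amino acid transaminase gene (r = 0.96), cdc17, a DNA ligase gene (r = 0.96), car2, an ornithine transaminase gene (r = 0.96), and suc22, which encodes a ribonucleotide reductase subunit (r = 0.95).

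Of 50 listed genes of neighbouring steps, 19 have a single-gene probe set named in the annotation. In the fit without a block 1 of these rose and 0 fell, near the shares of 3.97% and 3.66% called over all probe sets. The fit with the replicate block gave the same counts, 1 and 0. It called 16.3% of all probe sets higher and 16.4% lower, so these counts lie below its shares. That difference was not tested. The step between gpm1 and pyk1 belongs to enolase. The gene eno101 gave 12.82, 12.71 and 12.66 in untreated and 12.69, 12.50 and 12.92 in NaHS-treated cultures (log2 fold change -0.03, SE 0.12, limma adjusted p = 0.966). The pattern over the arrays was that of fba1 and pyk1. The second enolase gene, eno102, gave 7.42, 7.06 and 6.69 against 6.55, 6.96 and 6.76, and the groups overlapped (log2 fold change -0.30, SE 0.21, limma adjusted p = 0.496).

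The gene that rose was adh4 (SPAC5H10.06C), which encodes an alcohol dehydrogenase, the kind of enzyme that turns acetaldehyde into ethanol. Its log2 signal was 10.09, 10.22 and 10.04 in untreated replicates 1, 2 and 3 and 10.54, 10.48 and 10.49 after NaHS. The lowest NaHS value exceeded the highest untreated one, and the mean was 1.31 times that of untreated cultures, or 0.39 on the log2 scale (SE 0.08, limma adjusted p = 0.0364). It passed in the fit with the replicate block (adjusted p = 0.012 by limma). It was called in 0 of 6 fits with a single array removed (adjusted p from 0.0948 to 0.167 by limma) and not by SAM. Its log2 fold change over these 6 fits ran from 0.35 to 0.44. The 6 fits also called fewer of all probe sets than the main fit. The other alcohol dehydrogenase gene measured, adh1, lay at 12.79, 12.76 and 12.82 and then at 12.81, 12.71 and 12.97, a log2 fold change of 0.04 (adjusted p = 0.88 by limma). The aldehyde dehydrogenase gene atd3 differed by 0.13 on the log2 scale (SE 0.17, limma adjusted p = 0.772). The pyruvate decarboxylase genes have no probe set named in the annotation used here and were not analysed.

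Downstream of pyruvate, 0 of the 9 genes for the pyruvate dehydrogenase complex and its kinase, for pyruvate carboxylase and for malate transport and the malic enzyme passed the test, with log2 fold changes from -0.16 to 0.12 and a median of 0.04. With 7.63% of all probe sets called, a count of 0 among 9 genes is near the background of this fit. The replicate block also called 0 of the 9, where it called 32.7% of all probe sets. Among them, dld1, for the dihydrolipoamide dehydrogenase, differed by 0.11 on the log2 scale (limma adjusted p = 0.513), lat1, for the acetyltransferase subunit, by 0.06 (0.894), and mae1, for the malate transporter, by -0.16 (0.351). The last was the only one of the 9 whose groups did not overlap, where 13.7% of all probe sets were separated downwards and 14.6% upwards, with untreated arrays at 12.19, 12.11 and 12.11 and NaHS arrays at 12.03, 11.85 and 12.06. The gene has 2 further probe sets near the low end of the range, with log2 fold changes of -0.47 (limma adjusted p = 0.695) and -0.17 (0.91). In the pentose phosphate pathway and its outlet to nucleotides, 0 of 4 measured genes passed, again near the 7.63% of all probe sets. With the replicate block it was 0 of 4 as well, beside 32.7% of all probe sets. The list holds 16 genes, and the others have no probe set named in the annotation used here and were not analysed by name. Among them is gcd1 (SPCC794.01C), which the study lists as induced by NaHS. The count of 0 therefore does not speak for the pathway as a whole. The transaldolase gene tal1 gave 12.59, 12.56 and 12.60 and then 12.67, 12.74 and 12.69, so that all NaHS arrays were higher (log2 fold change 0.12, SE 0.06, limma adjusted p = 0.357), while the phosphoribosyl pyrophosphate synthetase genes prs1 and prs5 differed by -0.11 (limma adjusted p = 0.749) and -0.01 (0.98) on the log2 scale. The gene fbp1, for the fructose-1,6-bisphosphatase of gluconeogenesis, is known to be repressed by glucose. It gave 6.54, 6.09 and 6.45 in untreated and 6.69, 6.41 and 6.37 in NaHS-treated cultures, and the groups overlapped (log2 fold change 0.13, SE 0.15, limma adjusted p = 0.736). For comparison, the glucose transporter gene ght5, whose product feeds the hexokinases, differed by 3.11 on the log2 scale in the same fit (SE 0.08, limma adjusted p = 8.29e-05). No tested probe set had a lower adjusted p, so ght5 is an extreme case to compare with.

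The array also carries S. cerevisiae probe sets for the same enzymes, which were designed for another species and were read out with S. pombe RNA alone. Of 17 such genes, 11 are named in the annotation. Blank cells counted as 0 in their means. The probe sets of TPI1 and PGK1 had mean log2 signals of 6.09 and 5.68, the first and the third highest of the 2601 S. cerevisiae probe sets, and the other 9 had means from 0.41 to 3.52, below the level of 3.67. TPI1 gave 5.94, 6.35 and 6.53 in untreated and 5.72, 5.95 and 6.04 in NaHS-treated cultures, lower after NaHS within each replicate number but with overlapping groups. PGK1 gave 5.73, 6.03 and 5.53 against 5.55, 5.40 and 5.83, with no common direction. Which transcripts bound to these probes was not tested.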

How the data were processed

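The deposited values were log2 signals per probe set, made from 1 biotin-labelled cRNA per array with MAS5 (version and scaling target not given in the sources used here) by the array service for the authors. They were used as deposited. Probe sets were named from GEO's annotation of the array, with symbols updated through the gene IDs of RefSeq. Of 10928 probe sets, 2937 are paired with S. pombe genes (2917 with 1 gene), 2601 with S. cerevisiae genes, 5224 are unlisted and 166 are controls. The species was taken from the gene ID and, where RefSeq does not hold it, from the spelling of the symbol. Tested were all paired S. pombe probe sets and the 2029 unlisted ones whose mean exceeded 3.67 (the value below which 99% of S. cerevisiae means lie), 4966 in all. Blank cells, found in 8 of them, were set to 0, as were those of the S. cerevisiae probe sets.

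NaHS and untreated arrays, grouped by GEO's labels, entered a 2-group fit (limma 3.58.1, R 4.3.3), two-sided, with 4 residual and 2.02 prior degrees of freedom. The study used SAM. It was programmed for this work as an unpaired test over all 20 label arrangements (constant 0.426, estimated false discovery rate 0.046) and run as an alternative. The fits were tried on simulated data with independent noise on each array. These held no differences between replicate numbers, so they do not test the pairing. Figures were drawn with Python 3.11.15 and matplotlib 3.10.9.

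The replicate numbers were taken to pair the cultures, since the labels number the experiments and deviations from the group means correlated at 0.867, 0.578 and 0.598 between arrays numbered 1, 2 and 3, each above 0.1. The main fit has no block. Alternatives were the replicate block, quantile, median and cyclic loess normalization (the last chosen after seeing the data), other filters, blank cells left out, an intensity trend with a robust prior, SAM and each array left out.

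The members and the lists were chosen with earlier results of these data known. Genes were named by a rule: all members, every called gene of the neighbouring lists and up to 3 others per list in alphabetical order, the 5 genes most like the mean profile, and S. cerevisiae probe sets above the background level. The gene ght5, the marker genes mfm1, mfm2, mfm3 and map2, and the separate mention of TPI1 and PGK1 by array stand beside these. The name sol1, listed for the pentose phosphate pathway, belongs to a chromatin remodelling subunit in S. pombe and was left out. For a gene with several probe sets the one with the highest mean was used. No genome sequence was used, and positions are not given.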

Additional observations from a re-analysis of the deposited data

How the results depend on the processing

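None of the 9 glycolytic genes was called under any of the 15 alternatives, SAM included. Their direction was kept in 128 of 135 values, and the 7 others came from fits that leave out 1 array. The log2 fold change over these fits ran from -0.052 to 0.24 for hxk1, from -0.0033 to 0.11 for pfk1, from -0.056 to 0.12 for fba1, from -0.042 to 0.11 for tpi1, from -0.033 to 0.082 for pgk1 and from -0.069 to 0.068 for pyk1. It ran from -0.13 to 0.077 for eno101, from -0.027 to 0.10 for adh1, from -0.0020 to 0.25 for atd3, from -0.046 to 0.18 for lat1, from -0.045 to 0.041 for prs5 and from -0.0030 to 0.22 for fbp1. With quantile normalization that of prs5 was 0.0062. The hexokinase difference ran from -0.069 to 0.24 over these fits. Taken within replicate numbers its mean is the same by construction, 0.08 (p = 0.75, exact sign-flip test over 3 pairs, smallest possible p 0.25). The called gene of the fermentation list, adh4, was lost by SAM and in all 6 fits without 1 array, where the count of that list was 0. Of all probe sets, 197 were called higher and 182 lower. These counts were 807 and 815 with the replicate block, 92 and 77 with paired S. pombe probe sets alone (fewer are tested), and 118 and 31 by SAM, and from 67 to 134 and from 24 to 97 with 1 array left out, where fewer arrays enter. The other causes were not tested. The replicate block changed no call among the 9 glycolytic genes and the 19 neighbouring ones. The share called over all probe sets meanwhile rose from 7.63% to 32.7%. What share of the strong signals the block fit called was not examined. The intervals given are those of the fit without the block, and 3 arrays per group limit the precision of both fits.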
